A study of Mus musculus with 20 samples.

Results

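The genes of the integrated stress response, with its transcription factors ATF4 and CHOP, were followed in liver RNA of male mice in 5 groups. The 33 genes were chosen by name as known members of the pathway, with earlier results of these data known. Of them, 32 were found among the 16115 genes of the table. Aldh1l2, a mitochondrial folate enzyme, was not analysed here. The groups were untreated wild-type mice (genotype label wt, 4 libraries) and mice with the Fancd2 mutation on both alleles (label d2-/-), given nothing (3 libraries), metformin (3), oxymetholone (5) or metformin with oxymetholone (3). Livers were taken after 18 months of treatment. All treated groups carried the mutation, so no group shows a drug in wild-type liver. Fancd2 RNA was not analysed here, so the genotype labels were not checked on it. The Fancd2 protein takes part in repair of DNA crosslinks, and its loss causes Fanconi anaemia. Metformin lowers blood glucose, and the androgen oxymetholone is used against bone marrow failure. The sources used here give no design of the mutant allele, strain, dose or age. Nothing in the labels ties each library to a separate animal, so p-values measure the spread between these samples, which may in part be technical.

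Cells enter the integrated stress response when a kinase phosphorylates the translation factor eIF2alpha: HRI (gene Eif2ak1) on haem shortage or mitochondrial stress, GCN2 (Eif2ak4) on amino acid shortage, PERK on endoplasmic reticulum stress and PKR on double-stranded RNA. General protein synthesis falls, while the messenger RNA of ATF4 is translated more. ATF4 protein can therefore increase without more Atf4 RNA, and RNA-seq reads the pathway mainly through the target genes. ATF4 induces enzymes of serine, folate and asparagine synthesis, amino acid transporters, and CHOP (gene Ddit3), a transcription factor linked to cell death under lasting stress. In liver, which makes and breaks down most amino acids, several of these genes are also driven by feeding, glucocorticoids and insulin.

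ATF4 binds DNA with a C/EBP partner at composite elements with the letters TGATGNAAN, where N is any base. These letters were searched on both strands in the 250 bases before and 50 after the start sites that RefSeq gives on build GRCm38.p6. Start sites were found for 29 of the 32 genes, all but Cth, Eif4ebp1 and Slc7a5. Of the 29 genes, 8 held a match (27.6%): Asns, Atf3, Chac1, Nupr1, Pck2, Slc7a11, Trib3 and Vldlr. Of all 27025 genes in the promoter table, 4.5% held one. The list was written from known ATF4 targets, so that share describes the list and is not a result of these samples. A match is not a measured binding site. The endoplasmic reticulum stress element ERSE was in 0 of the 29 (0.137% of all genes), and the cyclic AMP element TGACGTCA was in 1, Ppp1r15a (2.03% of all genes). Stretches from 5 promoters are shown 5′ to 3′ on the gene's strand, with the composite element in capitals. Atf3 and Nupr1 are shown because their estimates were higher with oxymetholone. Asns and Chac1 are shown because they did not lie higher than untreated mutants without overlap in any treated group. Estimates of Asns and Chac1 with oxymetholone were also above 0, and Atf3 overlapped untreated mutants there. The 2 pairs are therefore no contrast between genes that respond and genes that do not. Slc7a11 is shown because it holds 2 copies on opposite strands.
Atf3, chr1:191183396-191183484, minus strand: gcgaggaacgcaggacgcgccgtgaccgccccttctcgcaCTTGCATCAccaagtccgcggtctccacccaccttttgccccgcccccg
Nupr1, chr7:126625533-126625621, minus strand: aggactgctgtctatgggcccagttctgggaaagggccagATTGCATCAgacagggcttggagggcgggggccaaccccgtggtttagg
Asns, chr6:7693210-7693272, minus strand: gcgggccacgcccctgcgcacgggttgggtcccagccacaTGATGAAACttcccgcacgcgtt
Chac1, chr2:119351008-119351096, plus strand: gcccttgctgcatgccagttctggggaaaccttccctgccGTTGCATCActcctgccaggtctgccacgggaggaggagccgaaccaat
Slc7a11, chr3:50443614-50443719, minus strand: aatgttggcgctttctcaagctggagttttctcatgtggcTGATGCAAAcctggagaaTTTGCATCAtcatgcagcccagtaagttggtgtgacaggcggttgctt
Counted from the start site, the element of Asns lies at −23 to −15, that of Chac1 at −194 to −186, and those of Atf3 and Nupr1 both at −111 to −103.

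Total counts per library were 20.2 to 32.7 M. Expression is given in CPM, which relates counts to the TMM-scaled library size and compares 1 gene between libraries, not different genes. Replicates of a group are listed in the order of their numbers, which are 2 to 4 in untreated mutants and 1, 3 and 4 with metformin. Each log2 difference stands with its SE, and edgeR adjusted p refers to the quasi-likelihood test, adjusted by Benjamini and Hochberg's method over 16115 genes. Hepatocyte markers were the strongest of the 8 cell type lists in every library (6 of 6 found, summed level 35127 to 94473 CPM, with none at 0). Bile duct markers (7 of 7 found) summed to 1466 CPM in untreated mutant replicate 2, 670 CPM in combination replicate 3 and 659 CPM in metformin replicate 3, and to 35.0 to 423 CPM in the other 15 libraries. Cftr was at 0 in 2 libraries. Stellate cell and fibroblast markers (7 of 7, none at 0) summed to 729 CPM in combination replicate 3, 520 CPM in metformin replicate 3, 473 CPM in oxymetholone replicate 2 and 158 CPM in untreated mutant replicate 2. Combination replicate 3 also held the highest sum of dividing-cell markers, 49.5 CPM (5 of 5 found). In bulk tissue, a change in the number of cells of a type and a change of RNA per cell cannot be told apart.

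No gene of the list passed the edgeR test in any of the 8 comparisons made (0 of 32 each). The background of genes called was 0.0434% for oxymetholone against untreated mutants (0.0248% higher, 0.0186% lower), 0.0186% for the combination (all higher), 0.0993% for oxymetholone against wild type (0.0683% higher, 0.031% lower) and 0% in the other 5. The direction of the estimates was uneven. The list was chosen with earlier results of these data known, so the shares below only describe it. With oxymetholone 28 of 32 genes lay above untreated mutants (87.5%, median log2 difference 0.41), while 52.9% of all genes did (median 0.03). With both drugs 24 of 32 lay above (75.0%, median 0.31), against 50.4% of all genes (median 0.0038), and with metformin alone 22 of 32 (68.8%, median 0.18), against 53.9% (median 0.04). At an unadjusted p under 0.05 there were 5 genes with oxymetholone, all higher (15.6% of the list; 4.8% of all genes, of which 2.77% higher). With both drugs there were 5 higher and 1 lower (18.8% of the list; 5.46% of all genes, 3.58% higher and 1.88% lower), and with metformin 3, all higher (9.38% of the list; 5.67% of all genes, 4.41% higher). The metformin genes include Stc2, whose place among the tested genes depends on its metformin libraries, as given below. These counts at an unadjusted p are from edgeR and depend on the tool. With limma-voom there were 9 of 32 for oxymetholone (3310 of 16115 genes), 9 for both drugs (1933) and 5 for metformin (2208). The median for both drugs was 0.21 without combination replicate 3, and that for metformin 0.08 without untreated mutant replicate 4 and 0.09 without metformin replicate 3. The 3 comparisons share the untreated mutant libraries, so their counts are not independent of each other. DESeq2 called 1 gene of the list in each of 2 comparisons, Ddit3 both times, and limma-voom called 0. Over all genes DESeq2 also called more than edgeR in both comparisons, with the counts given in the last section. Over single libraries, the median of the 32 genes relative to the wild-type mean was −0.15 to 0.34 (log2) in the 5 oxymetholone libraries and 0.0072 to 0.28 in the 3 combination libraries. It was −0.27 to 0.10 in untreated mutants, −0.19 to 0.0061 with metformin and −0.07 to 0.04 in wild type, so the oxymetholone libraries overlapped every other group.

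**Figure D1:**
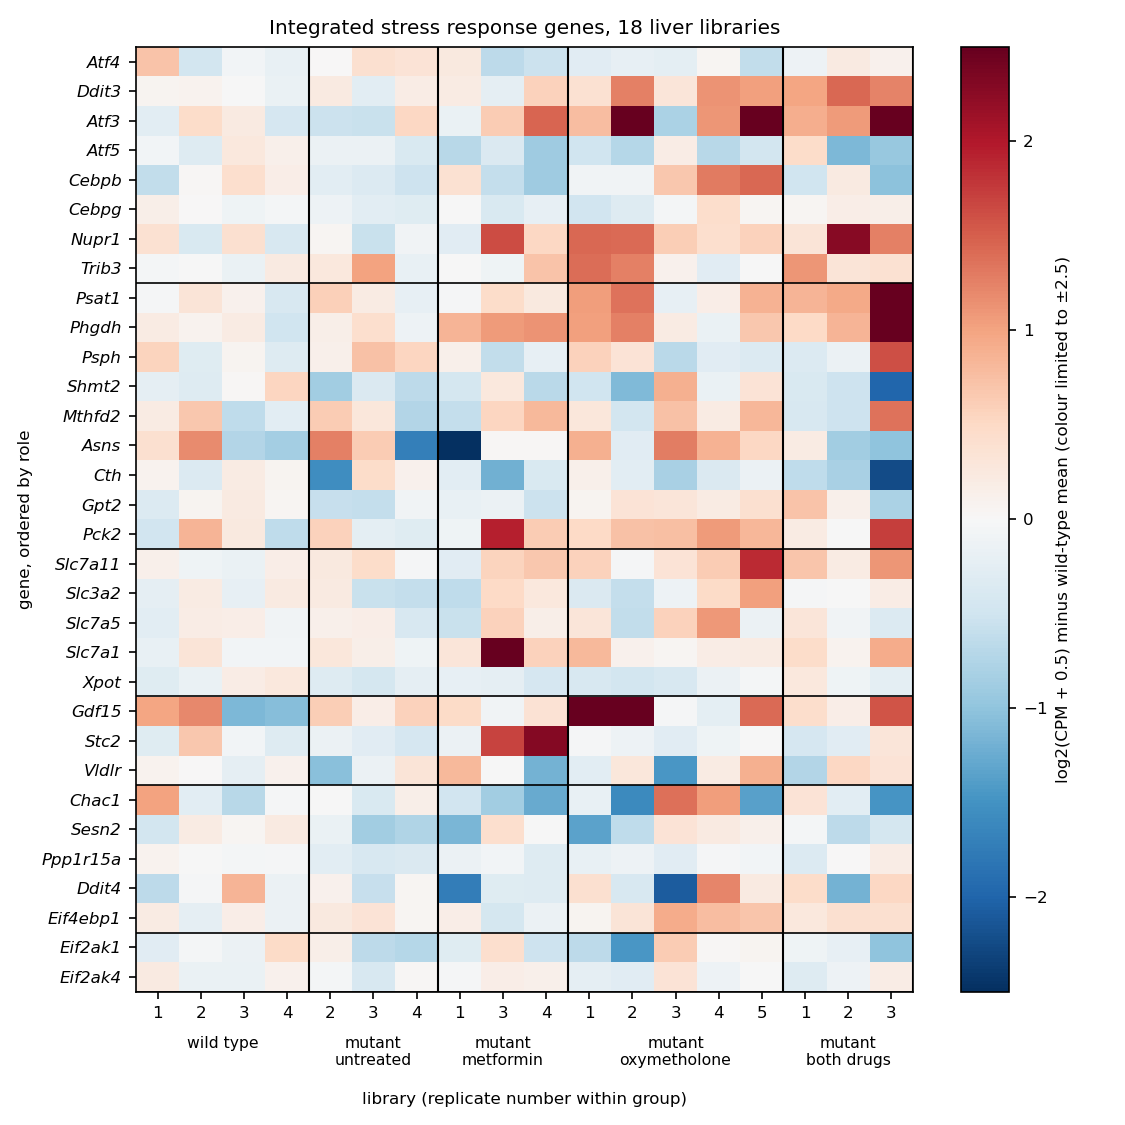
Each row is a gene, ordered by role, and each column a library; colour is log2(CPM + 0.5) minus the wild-type mean, with colours limited to ±2.5. Red for Ddit3 and Nupr1 is spread over the oxymetholone and combination columns, whereas red for Psat1 and Phgdh is darkest in combination replicate 3.

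Ddit3, which encodes CHOP, lay higher in the libraries with oxymetholone. It measured 3.31, 3.38, 3.12 and 2.74 CPM in wild type, 3.73, 2.52 and 3.63 CPM in untreated mutants and 3.68, 2.61 and 4.93 CPM with metformin. With oxymetholone it measured 4.25, 8.19, 3.95, 7.38 and 6.85 CPM, and with both drugs 6.74, 9.28 and 8.06 CPM. All 8 libraries with oxymetholone thus lay above all wild-type and untreated mutant libraries, and 6 of the 8 lay above all 10 libraries without the drug, metformin replicate 4 being the highest of those. The log2 difference from untreated mutants was 0.89 ± 0.29 with oxymetholone (edgeR adjusted p = 0.714) and 1.28 ± 0.32 with both drugs (edgeR adjusted p = 0.509). DESeq2, which called more genes than edgeR over all genes, called the latter (DESeq2 adjusted p = 0.0415). Over the 13 alternatives to that comparison adjusted p ran from 0.0415 to 1, with an unadjusted edgeR p of at most 0.00653 after leaving out any 1 of the 6 libraries. Against wild type, the oxymetholone group lay higher by 0.97 ± 0.26 (edgeR adjusted p = 0.351, DESeq2 adjusted p = 0.0392). Adjusted p over the 15 alternatives was 0.0392 to 1. That comparison uses no untreated mutant library, but its groups differ in both genotype and drug. Both drugs against metformin alone uses none either, and there Ddit3 lay higher again without overlap (1.10 ± 0.31, edgeR adjusted p = 0.999). Dividing-cell markers moved with Ddit3 in the oxymetholone group. They summed to 8.57, 18.8, 2.90, 12.7 and 14.3 CPM there and to 5.04, 3.17 and 2.90 CPM in untreated mutants, and oxymetholone replicate 3 was the lowest of its group for both, with Ccnb1 at 0. In the combination group the markers summed to 3.72, 5.35 and 49.5 CPM, and Ddit3 lay above all untreated libraries in each. In the metformin group the markers summed to 4.74, 7.40 and 25.4 CPM. Their part in the Ddit3 values was not tested.

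Atf4 itself, the gene of the main effector of the pathway, overlapped between the groups. It measured 272, 121, 159 and 146 CPM in wild type, 168, 219 and 210 CPM in untreated mutants, 197, 106 and 115 CPM with metformin, 136, 145, 140, 173 and 109 CPM with oxymetholone and 152, 194 and 178 CPM with both drugs. The highest and lowest values lay in wild type and metformin, and the estimates were below 0 with oxymetholone (−0.50 ± 0.26, edgeR adjusted p = 0.877) and with metformin (−0.52 ± 0.30, edgeR adjusted p = 0.927). The RNA of Atf5, a related factor that is also controlled at translation, ranged from 184 to 554 CPM and differed by −0.17 ± 0.32 with oxymetholone (edgeR adjusted p = 0.909).

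Atf3 encodes a stress-induced repressor downstream of ATF4. It measured 1.38, 2.60, 2.15 and 1.19 CPM in wild type, 1.07, 1.04 and 2.75 CPM in untreated mutants and 1.53, 3.005 and 5.71 CPM with metformin. In the oxymetholone group it spread from 0.809 CPM in replicate 3 over 3.36, 4.38 and 12.4 CPM to 14 CPM in replicate 5, and with both drugs it measured 3.76, 4.23 and 14.3 CPM. Oxymetholone replicate 3, the lowest of all 18 libraries, and replicates 2 and 5, among the 3 highest, belong to the same group. The stellate and fibroblast markers of replicate 3 summed to 60.4 CPM, the lowest of all 18, and those of replicates 2 and 5 to 473 and 384 CPM, and the dividing-cell markers differed in the same direction. Their part in the Atf3 values was not tested. The difference was 2.11 ± 0.78 with oxymetholone (edgeR adjusted p = 0.877) and 2.20 ± 0.83 with both drugs (edgeR adjusted p = 0.846). The latter was 1.29 without combination replicate 3.

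Nupr1, a small chromatin protein of the stress response, lay above untreated mutants in all 8 libraries with oxymetholone. It measured 1.61, 0.748, 1.65 and 0.732 CPM in wild type and 1.17, 0.602 and 1.03 CPM in untreated mutants. With oxymetholone it measured 3.92, 3.82, 2, 1.66 and 1.92 CPM, with both drugs 1.54, 7.34 and 3.41 CPM, and with metformin 0.842, 4.52 and 1.83 CPM. The metformin library that held 4.52 CPM was replicate 3, whose bile duct and fibroblast markers are given above. Their part in the value was not tested. Nupr1 differed from untreated mutants by 1.5 ± 0.59 with oxymetholone (edgeR adjusted p = 0.877), 2.11 ± 0.64 with both drugs (edgeR adjusted p = 0.776) and 1.35 ± 0.63 with metformin (edgeR adjusted p = 0.861). Without metformin replicate 3 the last was 0.52, and without combination replicate 2 the estimate for both drugs was 1.40.

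Cebpb, a partner of ATF4 that also serves glucocorticoid and acute-phase responses, separated oxymetholone alone from untreated mutants. It measured 28.0, 26.5 and 23.4 CPM in untreated mutants and 31.4, 31.4, 53.9, 83.3 and 91.1 CPM with oxymetholone (1.17 ± 0.41, edgeR adjusted p = 0.877). With both drugs it measured 23.5, 39.1 and 16.3 CPM, and wild type at 21.8, 34.5, 45.0 and 37.5 CPM and metformin at 43.7, 22.0 and 17.9 CPM overlapped the lower oxymetholone libraries. The combination lay below oxymetholone alone by −1.15 ± 0.41 (edgeR adjusted p = 0.956), and the interaction of the drugs was −1.25 ± 0.60 (edgeR adjusted p = 0.863), and −0.77 without metformin replicate 1. The mean of Cebpb was thus highest with oxymetholone alone, while that of Ddit3 was highest with both drugs, where it differed from oxymetholone alone by 0.39 ± 0.27 (edgeR adjusted p = 0.956). Macrophage markers (5 of 5 found) summed to 126, 129, 89.0, 252 and 247 CPM with oxymetholone. They summed to 129, 95.5 and 164 CPM in untreated mutants and 148, 43.3 and 316 CPM with both drugs. Their part in the Cebpb values was not tested. Cebpg, which encodes another dimer partner, ranged from 36.2 to 68.5 CPM, and Trib3, a pseudokinase that restrains ATF4, from 6.29 to 21.3 CPM. Cebpg differed by 0.19 ± 0.19 with oxymetholone and 0.35 ± 0.21 with both drugs (edgeR adjusted p = 0.877 and 0.973), and Trib3 by 0.23 ± 0.40 and 0.21 ± 0.45 (0.906 and 0.998).

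**Figure D2:**
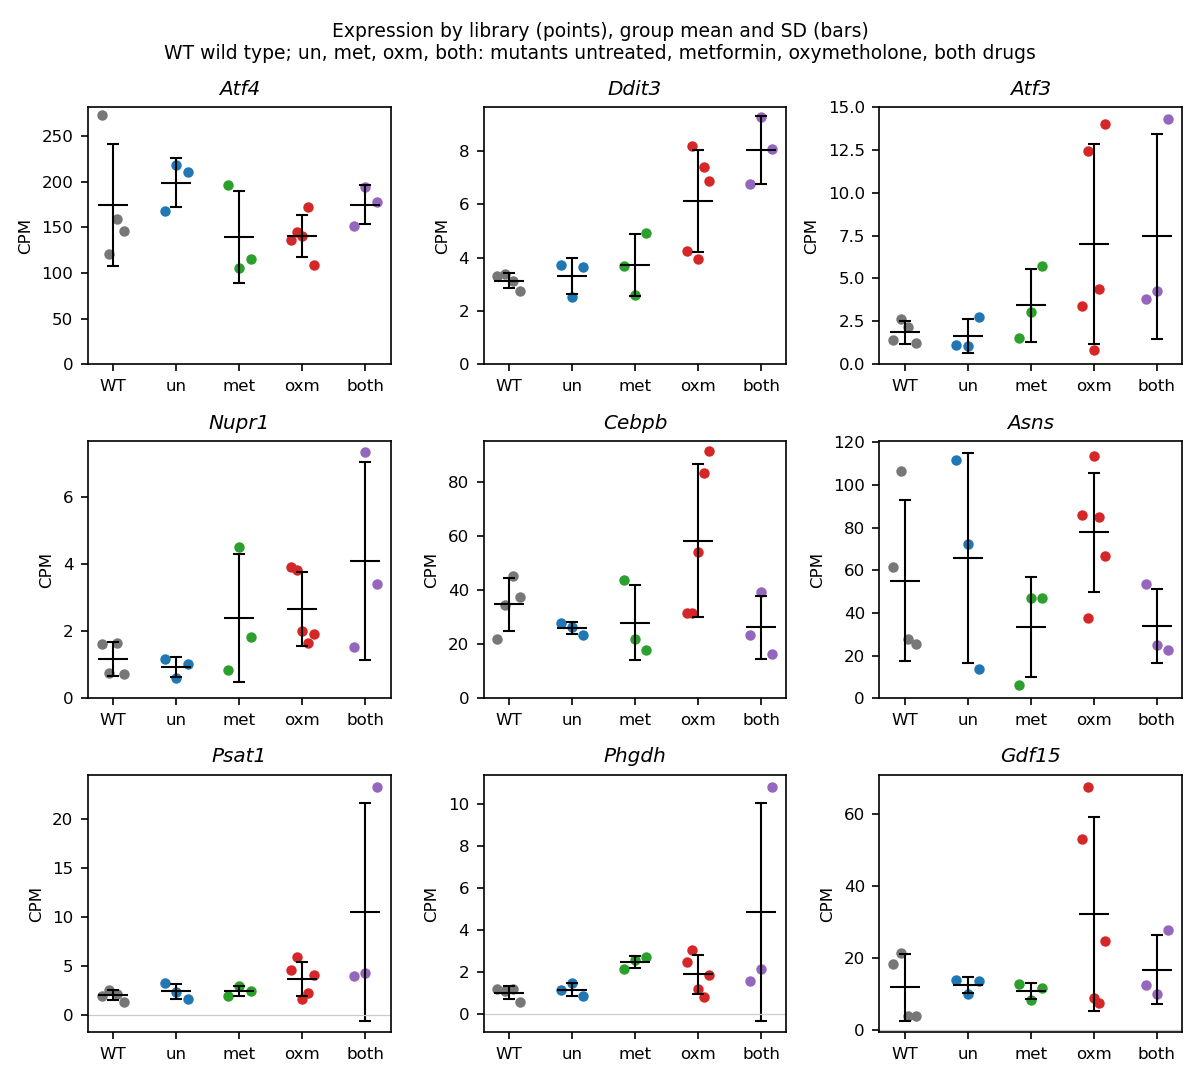
Points are CPM in single libraries of each group, and bars are the group mean and SD; each panel has its own linear axis. Ddit3 lay at 3.95 to 9.28 CPM in the 8 libraries with oxymetholone and at 2.52 to 4.93 CPM in the other 10, while Atf4 overlapped between the groups.

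The serine enzymes Phgdh, Psat1 and Psph carry out the successive steps from glycolytic 3-phosphoglycerate to serine. Psat1, the transaminase, measured 1.93, 2.60, 2.19 and 1.39 CPM in wild type, 3.27, 2.35 and 1.65 CPM in untreated mutants and 1.95, 2.94 and 2.43 CPM with metformin. With oxymetholone it measured 4.61, 5.90, 1.67, 2.27 and 4.06 CPM, and with both drugs 3.96, 4.28 and 23.3 CPM. The combination group lay above untreated mutants and metformin mutants without overlap, and its replicate 3 was far above its other libraries. The log2 difference of both drugs from untreated mutants was 2.12 ± 0.60 (edgeR adjusted p = 0.688), and from metformin alone 2.11 ± 0.60 (edgeR adjusted p = 0.999). Without combination replicate 3 these were 0.76 and 0.75. From oxymetholone alone the difference was 1.51 ± 0.51 (edgeR adjusted p = 0.956), and 0.15 without that library.

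Phgdh, the dehydrogenase of the first step, had 1.20, 1.07, 1.18 and 0.540 CPM in wild type and 1.14, 1.48 and 0.844 CPM in untreated mutants. It had 2.16, 2.58 and 2.69 CPM with metformin, 2.48, 3.04, 1.19, 0.811 and 1.84 CPM with oxymetholone and 1.59, 2.14 and 10.8 CPM with both drugs. All 3 metformin libraries thus lay above all untreated libraries of either genotype (1.11 ± 0.62 from untreated mutants, edgeR adjusted p = 0.927). The difference with both drugs was 2.09 ± 0.63 (edgeR adjusted p = 0.776), and 0.70 without combination replicate 3. Against oxymetholone alone it was 1.38 ± 0.53 (edgeR adjusted p = 0.956), and −0.01 without that library.

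Psph, the phosphatase of the last step, showed the same library as its highest. It measured 10.8, 12.3 and 42.6 CPM with both drugs, 15.06, 23.1 and 20.03 CPM in untreated mutants and 15.05, 8.78 and 11.8 CPM with metformin. In wild type it had 20.3, 11.1, 14.3 and 10.9 CPM, and with oxymetholone 20.6, 17.6, 8.38, 11.1 and 10.6 CPM. The interaction of the drugs was 1.39 ± 0.61 (edgeR adjusted p = 0.863), and 0.46 without combination replicate 3. That library also had the highest sum of dividing-cell and fibroblast markers, as given above, and their part in these serine enzyme values was not tested. Of the mitochondrial folate enzymes, Shmt2, which passes a carbon unit from serine to folate, was lowest in it at 36.8 CPM, with 79.6 CPM or more in all 10 libraries without oxymetholone. Mthfd2, the next mitochondrial folate enzyme, was highest in it, at 7.55 CPM. Over groups, Shmt2 differed by 0.67 ± 0.42 with oxymetholone and −0.18 ± 0.46 with both drugs, and Mthfd2 by 0.25 ± 0.55 and 0.31 ± 0.61 (edgeR adjusted p = 0.877, 0.998, 0.922 and 0.998).

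Asparagine synthetase, Asns, is a common reporter of ATF4, and its treated groups overlapped the untreated mutants. Its range was 6.42 to 113 CPM over the 18 libraries, with 13.8 to 111 CPM inside the untreated mutants alone, so the spread within the group covered almost the whole range. It differed by 0.24 ± 0.66 with oxymetholone, −0.97 ± 0.74 with metformin and −0.96 ± 0.74 with both drugs (edgeR adjusted p = 0.936, 0.927 and 0.997). Gpt2, the mitochondrial alanine transaminase, was steadier. It measured 202, 198 and 282 CPM in untreated mutants and 314, 384, 369, 348 and 396 CPM with oxymetholone, without overlap (0.67 ± 0.27, edgeR adjusted p = 0.877). Wild type, at 237, 317, 352 and 311 CPM, overlapped the oxymetholone group, and the difference from it was 0.25 ± 0.25 (edgeR adjusted p = 1). Metformin libraries had 264, 273 and 207 CPM and combination libraries 491, 329 and 174 CPM, the last the lowest of all 18.

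Cth, cystathionine gamma-lyase, which makes cysteine in the liver, lay lower with both drugs. It measured 1077, 798, 1171 and 1067 CPM in wild type, 348, 1405 and 1092 CPM in untreated mutants, 851, 443 and 782 CPM with metformin, 1115, 853, 581, 789 and 915 CPM with oxymetholone and 653, 578 and 214 CPM with both drugs. All combination libraries were below all wild-type libraries, but untreated mutant replicate 2 was lower than 2 of them. That library held the highest bile duct sum, 1466 CPM, and the lowest Cth value, in combination replicate 3, came with 670 CPM. Metformin replicate 3, with Cth at 443 CPM, had a sum of 659 CPM. Combination replicates 1 and 2, with Cth at 653 and 578 CPM, had sums of only 88.5 and 52.3 CPM. The part of these markers in the Cth values was not tested. The difference from untreated mutants was −0.98 ± 0.46 (edgeR adjusted p = 0.900) and was −0.58 without untreated mutant replicate 3 and −1.37 without replicate 2. Pck2, the mitochondrial phosphoenolpyruvate carboxykinase, ranged from 1.39 to 10.7 CPM and differed by 0.82 ± 0.55 with oxymetholone, 1.14 ± 0.60 with metformin and 0.92 ± 0.60 with both drugs (edgeR adjusted p = 0.877, 0.915 and 0.977). Of the 9 enzymes measured, 7 had estimates above 0 with oxymetholone, 6 with metformin and 6 with both drugs, and the group medians were 0.61, 0.13 and 0.31.

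Amino acid transporters bring in the substrates that the response calls for. Slc7a11, the cystine importer xCT, was weakly expressed, with 0.506, 0.356, 0.322 and 0.540 CPM in wild type, 0.604, 0.766 and 0.403 CPM in untreated mutants and 0.263, 0.858 and 0.985 CPM with metformin. It reached 0.881, 0.408, 0.667, 0.933 and 2.87 CPM with oxymetholone and 0.991, 0.561 and 1.48 CPM with both drugs. Oxymetholone replicate 5 stood out in its group. The difference from wild type was 1.43 ± 0.54 (edgeR adjusted p = 0.821), and 0.74 without that library. Slc7a1, the cationic amino acid importer, had 6.27 CPM in metformin replicate 3. Its other metformin libraries had 0.842 and 1.13 CPM, untreated mutants 0.817, 0.711 and 0.513 CPM and wild type 0.460, 0.854, 0.537 and 0.540 CPM. With oxymetholone it measured 1.40, 0.667, 0.619, 0.730 and 0.758 CPM, and with both drugs 0.991, 0.663 and 1.58 CPM. The metformin difference of 2.01 ± 0.63 (edgeR adjusted p = 0.579) was 0.54 without replicate 3, whose markers of bile duct and fibroblasts are given above. Slc3a2 and Slc7a5, the heavy and light chains of the leucine exchanger LAT1, ranged from 19.1 to 61.2 CPM and from 1.19 to 4.95 CPM. They differed by 0.48 ± 0.35 and 0.44 ± 0.42 with oxymetholone, and Xpot, the exporter of transfer RNA from the nucleus, at 49.2 to 81.6 CPM, by 0.05 ± 0.18 (edgeR adjusted p = 0.877, 0.877 and 0.957). With oxymetholone all 5 genes had estimates above 0, with metformin 5 and with both drugs 4.

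Among secreted factors, Gdf15, a hormone that lowers food intake and that metformin is known to raise in other settings, did not separate metformin from untreated libraries. It measured 12.7, 8.45 and 11.6 CPM with metformin and 13.96, 10.1 and 13.7 CPM in untreated mutants (−0.20 ± 0.76, edgeR adjusted p = 0.972). Wild-type libraries had 18.3, 21.3, 3.87 and 4.01 CPM. With oxymetholone the values were 53.1, 67.5, 8.81, 7.46 and 24.6 CPM, and with both drugs 12.4, 10.1 and 27.8 CPM. Thus 3 oxymetholone libraries were above all untreated ones and the other 2 were below all untreated mutants. The difference was 1.36 ± 0.71 from untreated mutants (edgeR adjusted p = 0.877) and 1.45 ± 0.64 from wild type (edgeR adjusted p = 1), and the latter was 0.99 without oxymetholone replicate 2.

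Stc2, a secreted glycoprotein hormone, was near the limit of detection except in 2 libraries. It had 50 and 97 counts in metformin replicates 3 and 4 (1.65 and 2.81 CPM) and 2 counts in metformin replicate 1 (0.105 CPM). Untreated mutants had 0.107, 0.0547 and 0 CPM, and wild type 0.0460, 0.570, 0.143 and 0.0385 CPM. Oxymetholone libraries had 0.160, 0.111, 0.0476, 0.122 and 0.163 CPM and combination libraries 0, 0.0510 and 0.329 CPM. With metformin the difference from untreated mutants was 4.72 ± 1.27 (edgeR adjusted p = 0.579), and a fold change over libraries with 0 to 3 counts rests on the prior count of the fit. Every gene tested reached 0.4 CPM in at least 3 libraries. Stc2 did so only in metformin replicates 3 and 4 and wild-type replicate 2. Its place among the tested genes thus depends on the metformin libraries, and its tests are description only. The groups overlapped through metformin replicate 1. Both drugs lay below metformin alone by −3.34 ± 1.10 (edgeR adjusted p = 0.999), and the interaction was −4.46 ± 1.68 (edgeR adjusted p = 0.863). Without combination replicate 3 these were −5.69 and −6.81. Vldlr, the lipoprotein receptor that ATF4 induces in liver stress, ranged from 1.67 to 10.6 CPM and differed by 0.34 ± 0.53 with oxymetholone (edgeR adjusted p = 0.894).

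A further role joined 5 genes of stress feedback and growth brakes. Eif4ebp1, a brake on cap-dependent translation, measured 53.0, 39.3, 51.7 and 41.7 CPM in wild type and 54.9, 58.5 and 47.7 CPM in untreated mutants. It had 48.6, 58.1, 88.5, 78.9 and 74.6 CPM with oxymetholone, 55.6, 61.0 and 61.2 CPM with both drugs and 51.9, 33.7 and 41.5 CPM with metformin. The combination libraries were above all metformin libraries (0.48 ± 0.23, edgeR adjusted p = 0.999), and the oxymetholone group above wild type by 0.59 ± 0.19 (edgeR adjusted p = 0.631), with overlap through oxymetholone replicate 1. Chac1, which degrades glutathione and is a classic ATF4 target, ranged from 0.853 to 10.1 CPM within the oxymetholone group alone, so its difference of 0.44 ± 0.71 was within the spread (edgeR adjusted p = 0.898). With metformin it lay below untreated mutants without overlap (−0.94 ± 0.79, edgeR adjusted p = 0.927). Ppp1r15a, the GADD34 phosphatase subunit that reverses eIF2alpha phosphorylation, was narrow, at 5.30 to 8.28 CPM over all libraries, and differed by 0.23 ± 0.18 with oxymetholone (edgeR adjusted p = 0.877). Sesn2 and Ddit4, inhibitors of the growth kinase mTORC1, ranged from 1.12 to 4.95 CPM and from 2.09 to 25.3 CPM and differed by 0.50 ± 0.45 and 0.34 ± 0.59 with oxymetholone (edgeR adjusted p = 0.877 and 0.906). With oxymetholone all 5 genes of this role had estimates above 0, with both drugs 4 and with metformin 2. Of the kinases, Eif2ak1 ranged from 6.82 to 30.6 CPM and Eif2ak4 from 4.05 to 7.14 CPM. Eif2ak1 differed by 0.25 ± 0.39 and Eif2ak4 by 0.09 ± 0.22 with oxymetholone (edgeR adjusted p = 0.898 and 0.929).

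**Figure D3:**
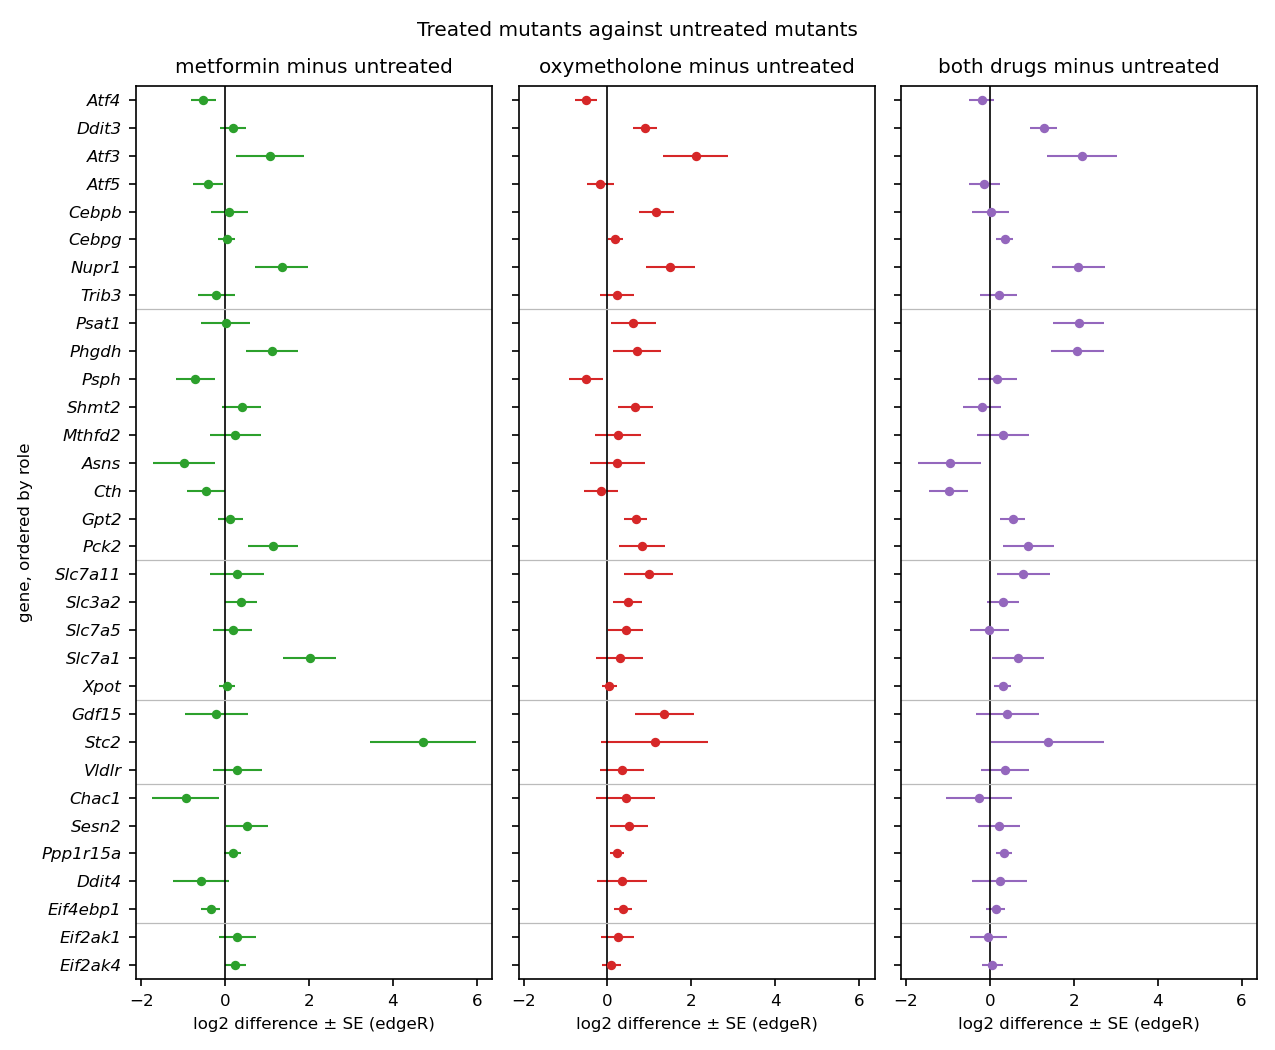
Points are log2 differences from untreated mutants with their SE, for each gene in the 3 treated groups; grey lines separate the roles. With oxymetholone 28 of 32 points lie right of 0, but no gene passed the adjusted test, and the widest bars belong to the weakly expressed Stc2.

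Other genes of stress signalling were counted from 6 further lists, which were written with the earlier results of these data known. Genes named from them were picked for the smallest unadjusted p of their list in a described comparison, so they are not typical members. In these lists edgeR called 0 genes for metformin, oxymetholone, the combination or genotype, at the backgrounds given above. Endoplasmic reticulum chaperones, targets of the parallel ATF6 and XBP1 arms, had estimates above 0 in 6 of 23 genes with oxymetholone (median −0.26), 5 of 23 with metformin (−0.37) and 5 of 23 with both drugs (−0.41), and 0 had an unadjusted p under 0.05 in each. In untreated mutants against wild type the same 23 genes had 18 above 0 (median 0.24), with the translocon gene Sec61b at 0.86 ± 0.37 (edgeR adjusted p = 0.973). Most chaperone estimates with oxymetholone thus lay below 0. Of the 8 transcription factors and regulators of the integrated stress response list, 6 lay above 0 and 2, Atf4 and Atf5, below it. The 3 treated groups again share their untreated mutant controls. Against wild type, the oxymetholone group had 12 of 23 chaperones above 0 (median 0.01), while 21 of the 32 integrated stress response genes were above 0 (median 0.23; 0.11, 0.41 and 0.38 without oxymetholone replicate 4, oxymetholone replicate 2 and wild-type replicate 2).

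Aminoacyl-tRNA synthetases, another ATF4 output, had 15 of 20 estimates above 0 with oxymetholone (median 0.11), 8 with metformin (−0.05) and 3 with both drugs (−0.22). The threonine and cysteine synthetases Tars and Cars differed by −0.92 ± 0.36 and −0.53 ± 0.21 with both drugs (edgeR adjusted p = 0.866 for each). Of 26 further ATF4 and CHOP targets, 19 were above 0 with oxymetholone (median 0.26), 18 with metformin (0.22) and 17 with both drugs (0.17). The glutamine transporter gene Slc1a5 was among them, at 2.05 ± 0.64 with metformin and 1.59 ± 0.63 with both drugs (edgeR adjusted p = 0.579 and 0.866). The eIF2 control list was centred on 0 (9 of 17 above 0 in each of the 3). Impact, an inhibitor of GCN2, differed in it by 1.14 ± 0.33 with both drugs (edgeR adjusted p = 0.723). Folate enzymes outside the list were above 0 in 4 of 15 with oxymetholone (median −0.25), 3 with metformin (−0.27) and 4 with both drugs (−0.34). Among them the glycine cleavage gene Amt differed by −0.69 ± 0.25 with oxymetholone and −0.80 ± 0.28 with both drugs (edgeR adjusted p = 0.877 and 0.817). Of 10 mitochondrial chaperones and proteases, 6 were above 0 with oxymetholone (median 0.03), 6 with metformin (0.12) and 3 with both drugs (−0.06). Clpx, the ATPase of a matrix protease, lay below all untreated mutant libraries in each treated group, and these comparisons share those libraries. It differed by −1 ± 0.35, −1.11 ± 0.30 and −1.07 ± 0.35 for metformin, oxymetholone and both drugs (edgeR adjusted p = 0.652, 0.461 and 0.798). Of all genes, 3.32%, 1.59% and 3.95% lay lower there without overlap.

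**Figure D4:**
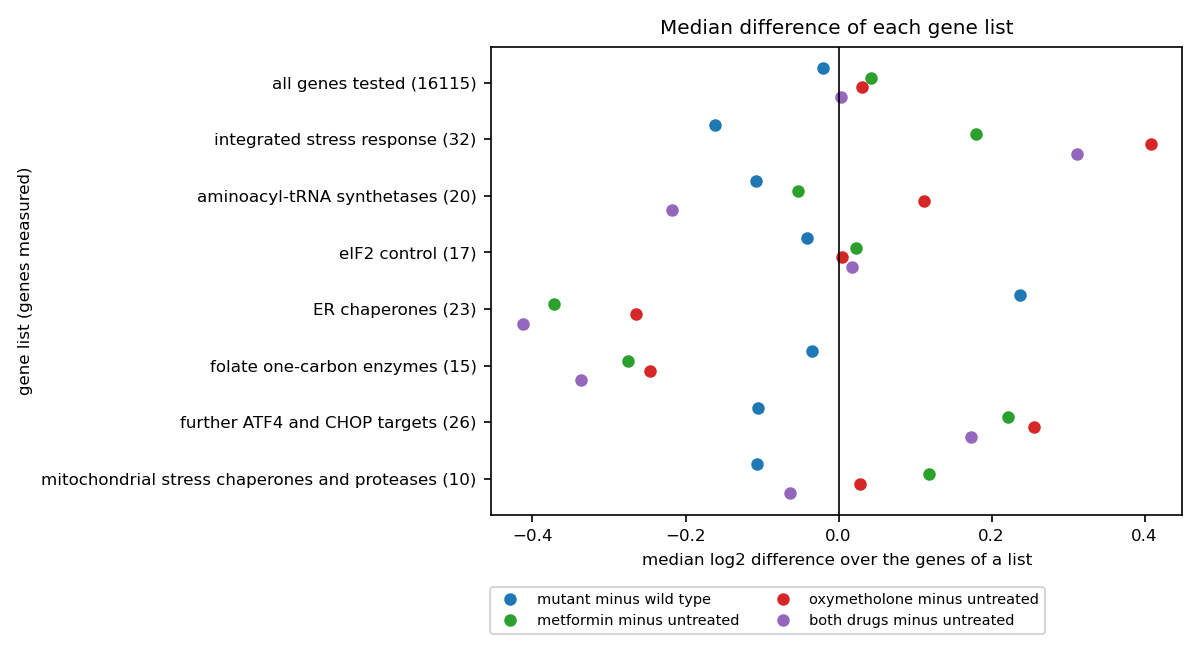
Points are the median log2 difference over the genes of each list in 4 comparisons, with the number of genes measured in brackets. The integrated stress response list lies at 0.41 with oxymetholone and −0.16 for genotype, and the chaperone list at −0.26 and 0.24.

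For the mutation alone, untreated mutants against wild type, the count at an unadjusted p under 0.05 depended on the tool. It was 7 of 32 with limma-voom (4080 over all genes) and 1 of 32 with DESeq2 (559 over all genes). With edgeR, 0 of 32 genes reached an unadjusted p under 0.05 (2.58% of all genes, 1.36% higher and 1.22% lower). Estimates were above 0 in 12 of 32 (median −0.16; all genes 47.8%, median −0.02), and the median was −0.27 without untreated mutant replicate 2 and −0.06 without replicate 3. Without overlap, 3 genes lay lower and 0 higher in the mutants (3.82% and 2.5% of all genes): Cebpg, Shmt2 and Ppp1r15a, at −0.23, −0.66 and −0.37. Since the genotype and the oxymetholone comparison share the untreated mutants with opposite sign, the oxymetholone group was also read against wild type. In that comparison the mutation and the drug cannot be told apart. There 6 of 32 genes had an unadjusted p under 0.05, all higher (4.51% of all genes, 2.46% higher and 2.05% lower): Ddit3, Atf3, Nupr1, Slc7a11, Gdf15 and Eif4ebp1. Only Ddit3 and Nupr1 of the 32 had no overlap there (2 higher and 0 lower; 0.987% and 1.11% of all genes). Nupr1 was separated only by 1.66 CPM in oxymetholone replicate 4 against 1.65 CPM in wild-type replicate 3. Against untreated mutants the genes without overlap were Ddit3, Cebpb, Nupr1 and Gpt2 with oxymetholone (4 higher, 0 lower; 1.87% and 1.59% of all genes). With both drugs they were Ddit3, Atf3, Cebpg, Nupr1, Psat1 and Phgdh (6 higher, 0 lower; 4.71% and 3.95%). With metformin they were Phgdh and Slc7a1, higher, and Psph and Chac1, lower (3.94% and 3.32% of all genes). Psph was separated only by 15.05 against 15.06 CPM, which is far less than the spread within either group. Slc7a1 was separated only by 0.842 CPM in metformin replicate 1 against 0.817 CPM in untreated mutant replicate 2.

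For oxymetholone added to metformin, 21 of 32 genes were above 0 (median 0.28, and 0.08 without combination replicate 3). Unadjusted p was under 0.05 in 2 higher, Ddit3 and Psat1, and 2 lower, Slc7a1 and Stc2 (3.43% of all genes, 1.33% higher and 2.09% lower). Slc7a1 differed there by −1.34 ± 0.61 (edgeR adjusted p = 0.999), and by 0.14 without metformin replicate 3. Ddit3, Cebpg, Psat1 and Eif4ebp1 lay higher there without overlap (4 genes; 2.24% of all genes), and 0 lay lower (2.15%). For metformin added to oxymetholone, 16 of 32 were above 0 (median 0.0038) and 0 genes lay without overlap (0.763% of all genes higher and 0.372% lower). Unadjusted p was under 0.05 in 2 higher, Psat1 and Phgdh, and 1 lower, Cebpb (2.86% of all genes, 1.83% higher and 1.03% lower). The interaction of the drugs had Psph above 0 and Stc2 below 0 at an unadjusted p under 0.05 (3% of all genes, 0.993% above and 2% below). In the authors' deposited table, Ddit3 had the smallest adjusted p of the 32 for oxymetholone (0.154) and for both drugs (0.161) against untreated mutants. Psat1 had it for both drugs against metformin in the authors' deposited table (0.267). The authors' deposited table called 0 of the 32 in each of its 7 comparisons, with 0.292% of all genes called for oxymetholone and 0% in the other 6. Some estimates in the authors' deposited table were far from those given here. For metformin it has Slc7a1 at 0.0094 (here 2.01), Nupr1 at 0.24 (here 1.35) and a median of 0.06 over the 32 genes (here 0.18). For oxymetholone it has 24 of 32 genes above 0 and a median of 0.27 (here 28 and 0.41). The corresponding values for both drugs are 21 of 32 and 0.21 (here 24 and 0.31). For both drugs the authors' deposited table has Stc2 at −0.93 (here 1.38) and Gdf15 at −0.38 (here 0.42). The sign was the same as here for 27 of 32 genes with metformin, 26 with oxymetholone and 23 with both drugs.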

How the data were processed

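Liver RNA was sequenced by the submitters in 20 labelled samples. Libraries of 18 entered; replicate 1 of untreated mutants and replicate 2 of metformin were not analysed here. Replicates are numbered by sample record. Per the submitters' processing notes, reads refer to build GRCm39. Which aligner, counter and annotation were used is not given in the sources used here. In the 1 table that the authors deposited, raw columns hold counts per gene, per the file headers. The deposited CPM signal equals CPM with TMM scaling computed here for the 32 genes. Deposited log2 residuals were not used, and deposited log2 fold changes and p-values are quoted only where the authors' table is named.

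Counts were fitted with edgeR 4.0.16 in R 4.3.3 (TMM, filterByExpr, which removed 0 of 16115 genes, and a robust quasi-likelihood fit of 5 groups together, threshold 0.05). Each gene of the deposited table already reached 0.4 CPM in at least 3 libraries. Alternatives used DESeq2 1.42.0, limma 3.58.1 (voom with quality weights), other scaling and filters, the compared groups alone, and each library left out. The procedure was tested on simulated counts. Strand was not stated, so overlapping antisense genes cannot be told apart. The genes, lists and alternatives were chosen with earlier results of these data known. Values per library are given for Atf4, Ddit3 and every gene with an unadjusted p under 0.05 in at least 1 of 8 comparisons. The others are given by range or difference. Up to 2 genes of each further list are named, those with the smallest unadjusted p in a described comparison. Promoters are from RefSeq on GRCm38.p6, matched by symbol, and were not compared with coordinates of the data.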

Additional observations from a re-analysis of the deposited data

Results flagged for a closer look

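Within the 2 groups of at least 4 libraries, 64 gene-by-group sets of the 32 genes were examined for 1 library far from its group, and 3 stood out. Chance flags about 1 in 20 such sets. Atf5 had 459 CPM in oxymetholone replicate 3, with 244 to 293 CPM in the other 4 libraries. Slc7a11 had 2.87 CPM in oxymetholone replicate 5, with 0.408 to 0.933 CPM in the others. Slc7a1 had 1.40 CPM in oxymetholone replicate 1, with 0.619 to 0.758 CPM in the others. The cause was not tested.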

How the results depend on the processing

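No paired analysis was possible because the labels give no replicate numbers and nothing ties libraries across groups. With edgeR, 0 of the 32 genes passed in each of the 8 comparisons under every alternative. DESeq2 called 1 of the 32 (Ddit3) for both drugs against untreated mutants and 1 (Ddit3) for oxymetholone against wild type. Over all genes DESeq2 called 11 genes for metformin, 77 for oxymetholone, 43 for both drugs, 89 for oxymetholone against wild type, 10 for oxymetholone added to metformin, 1 for metformin added to oxymetholone and 3 for the interaction, where edgeR called 0, 7, 3, 16, 0, 0 and 0. Limma-voom called 14 for oxymetholone, 16 for both drugs, 43 for oxymetholone against wild type and 3 for oxymetholone added to metformin. Fitted to the compared groups alone, edgeR called 0 for both drugs and 25 for oxymetholone against wild type. Without metformin replicate 3 and combination replicate 3 together it called 5 for both drugs, and the median of the 32 genes for metformin added to oxymetholone went from 0.00381 to −0.23. On leaving out single libraries, calls over all genes were 4 (without untreated mutant replicate 4) to 7 for oxymetholone, 0 to 3 for both drugs (0 without untreated mutant replicate 2 or 4), 9 to 17 for oxymetholone against wild type (9 without wild-type replicate 4, 10 without replicate 1) and 0 to 2 for oxymetholone added to metformin (2 without combination replicate 3). The median of the 32 genes was then 0.33 to 0.57 for oxymetholone (highest without untreated mutant replicate 2), 0.21 to 0.37 for both drugs, 0.08 to 0.25 for metformin, −0.27 to −0.06 for genotype, 0.11 to 0.41 for oxymetholone against wild type (0.38 without wild-type replicate 2), 0.08 to 0.30 for oxymetholone added to metformin and −0.23 (without combination replicate 3) to 0.12 for metformin added to oxymetholone. Slc7a1 for oxymetholone added to metformin changed sign without metformin replicate 3 (0.14), and Phgdh for metformin added to oxymetholone without combination replicate 3 (−0.01). The causes were not tested. By mean CPM over the 18 libraries, depth limits Stc2, Slc7a11, Slc7a1, Phgdh and Nupr1 most among the 32 genes.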
